A study of Mus musculus with 6 samples.

Results

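Broad constant domains of 5-hydroxymethylcytosine (5hmC) were the autosomal regions of at least 2500 bp that carried a peak in every one of 4 5hmC immunoprecipitation libraries. Peaks of the 4 libraries that shared at least 1 bp were merged into 171780 autosomal regions. Of these, 68363 were called in all 4 libraries (constant regions), 1865 of them at least 2500 bp wide and 66498 narrower. The 1865 broad regions were chosen by 2 measured values, the merged width and the presence of a peak in each library, and both are given as a description without a test.

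The cells were Kit-enriched bone marrow cells of C57BL/6 mice carrying floxed Tet2 and a tamoxifen-inducible Cre recombinase (CreER). All groups were transduced with a retrovirus for the AML1-ETO fusion and GFP, and were grown through replating in methylcellulose and then in suspension. The KO group (Tet2-/-, 2 libraries) received 4-hydroxytamoxifen (4-OHT) at 200 nM for 2 passages, 4 days in all. The flox group (Tet2fl/fl, 2 libraries) received ethanol, and all cells were taken at passage 5. GFP-positive cells were sorted as CD11b-, Gr1- and CD16/32+, a sort that the labels give as immature myeloid cells. Every group thus carried AML1-ETO expressed from a vector, and no group without the fusion was analysed here. Activation of Cre and exposure to 4-OHT cannot be told apart from the loss of Tet2 in these groups. The labels do not say whether the 2 libraries of a group came from separate cultures or animals, so p-values measure only the spread between libraries. Peak lists hold no RNA levels, so the labelled cell type could not be checked against the expression of its markers. An IgG library and an input library of the series were not used here.

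5hmC is made when TET enzymes oxidise 5-methylcytosine, and it is both an intermediate of DNA demethylation and a lasting mark of gene bodies and enhancers. TET2 is the TET enzyme most often mutated in myeloid malignancy, and AML1-ETO is a fusion transcription factor of acute myeloid leukaemia that binds DNA through the RUNX domain of RUNX1. In DNA immunoprecipitation, sonicated fragments bound by an antibody to 5hmC are sequenced, and a peak is an interval with more fragments than the background model of the peak caller. A peak's length and score do not measure how many cytosines carry the mark.

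A small part of the broad regions can be shown through the DNA at gene starts that every library called along its whole length. Of the 1827 broad regions on chromosomes where listed starts were used, 117 (6.40%) held a start. The sequences below therefore do not stand for the broad regions as a whole. A whole promoter window, 250 bases before to 50 bases after a start, lay under a single peak in all 4 libraries for 56 promoters of 46 genes in broad regions. The sequences from the 5 widest such regions are shown because every library called these starts along the whole window, and they are ordered by merged width. Each is the 250 bases before the start, 5′ to 3′ on the gene's strand, from RefSeq GRCm38.p6, with every CG dinucleotide, the usual site of the mark, in capitals.
Grin2d, chr7:45866682-45866931, minus strand: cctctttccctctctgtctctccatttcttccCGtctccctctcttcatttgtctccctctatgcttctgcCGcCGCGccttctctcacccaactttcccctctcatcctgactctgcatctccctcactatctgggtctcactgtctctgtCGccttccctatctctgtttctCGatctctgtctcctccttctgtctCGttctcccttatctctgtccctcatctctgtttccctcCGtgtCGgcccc
Tnfrsf1a, chr6:125349473-125349722, plus strand: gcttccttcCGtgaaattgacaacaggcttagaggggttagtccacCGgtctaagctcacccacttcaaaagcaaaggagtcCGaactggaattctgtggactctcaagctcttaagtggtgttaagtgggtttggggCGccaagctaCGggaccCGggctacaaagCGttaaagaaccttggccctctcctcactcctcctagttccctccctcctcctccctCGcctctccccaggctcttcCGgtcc
Bpifb4, chr2:153940612-153940861, plus strand: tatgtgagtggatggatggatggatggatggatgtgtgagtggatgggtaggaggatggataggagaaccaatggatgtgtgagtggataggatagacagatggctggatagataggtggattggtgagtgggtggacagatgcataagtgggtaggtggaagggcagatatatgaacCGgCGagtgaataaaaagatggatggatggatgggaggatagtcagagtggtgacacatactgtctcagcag
Grik5, chr7:25072370-25072619, minus strand: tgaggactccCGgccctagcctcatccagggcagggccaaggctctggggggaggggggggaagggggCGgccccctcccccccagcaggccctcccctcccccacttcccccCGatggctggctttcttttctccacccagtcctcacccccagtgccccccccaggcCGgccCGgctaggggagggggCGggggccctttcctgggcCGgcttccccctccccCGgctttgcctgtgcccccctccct
Pbx2, chr17:34592009-34592258, plus strand: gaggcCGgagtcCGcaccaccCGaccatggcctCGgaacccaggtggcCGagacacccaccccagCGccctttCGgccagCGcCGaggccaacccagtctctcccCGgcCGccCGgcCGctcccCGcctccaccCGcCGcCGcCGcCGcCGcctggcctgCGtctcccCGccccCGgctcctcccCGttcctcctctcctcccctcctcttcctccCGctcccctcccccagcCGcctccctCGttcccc

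The Grin2d and Tnfrsf1a stretches held 9 CG each, Grik5 held 8, Bpifb4 held 2 and Pbx2 held 27. Grin2d and Grik5 encode glutamate receptor subunits, Tnfrsf1a the type 1 receptor of tumour necrosis factor, and Pbx2 a homeodomain partner of HOX proteins. The Pbx2 region, 4187 bp wide, had 3841 and 3677 bp under peaks in the KO libraries, against 3857 and 3761 bp in the flox libraries, so the groups overlapped. The Grin2d region, 5377 bp wide, had 3029 and 3123 bp under peaks in the KO libraries, against 4017 and 4078 bp in the flox libraries, with both flox libraries above both KO libraries. The Tnfrsf1a region, 5067 bp wide, had 2247 and 2002 bp in the KO libraries, against 820 and 4332 bp in the flox libraries, and the flox libraries lay on both sides of the KO libraries. Over whole 300-base windows, the median was 13 CG and 60.5% G+C for the 56 promoters in broad regions, 17 CG and 63.3% for the 465 promoters covered in other regions, and 14 CG and 57.0% for all 20063 autosomal promoters in the table. TGTGGT, the RUNX core motif, or its reverse complement ACCACA occurred in 5 of the 56 (8.93%), in 12.9% of the 465 and in 14.8% of all 20063 promoters.

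The width of the broad regions ran from 2500 to 10818 bp with quartiles of 2636, 2820 and 3181 bp, and together they spanned 5.64 Mb. The narrower constant regions had a median width of 1282 bp. Merging made up part of this width. The called length, that is the bases of a region under peaks of a library, reached 2500 bp in 665 and 613 regions of the KO libraries, against 789 and 682 regions of the flox libraries. It did so in all 4 libraries in 272 regions (14.6%) and in no library in 581 (31.2%). A single peak in every library made up 455 broad regions (24.4%), against 63581 (95.6%) of the narrower ones, and the most peaks that 1 library placed in a broad region was 5.

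Of all bases in broad regions, 55.2% were called in all 4 libraries, and the share was 56.2% in the narrower constant regions. The median broad region had 57.1% of its width called in all 4 libraries, with quartiles of 39.7 and 69.9%. At the extremes, 24 regions (1.29%) had at least 90% of their width called in every library, and 33 (1.77%) had no base that every library called, their peaks being joined in a chain. Bases called in both KO libraries alone made up 1.92% of the broad regions and bases called in both flox libraries alone 3.32%, against 2.12 and 2.38% in the narrower regions. Broad regions were also high in the authors' peak scores, which are -10 log10 of the peak caller's p-value. The median broad region's highest peak stood at percentile 90.9 and 91.3 of all peaks in the KO libraries, and at 91.6 and 91.1 in the flox libraries. The percentiles of narrower regions were 67.3 and 68.4 in the KO libraries and 67.5 and 67.2 in the flox libraries. The percentile rose with merged width, the value that chose the regions. In KO replicate 1 it was 58.5 at 500 to 1000 bp, 83.3 at 1500 to 2500 bp and 97.0 at 4000 bp or more. Score apart from width was not tested. The number of reads per library is not known, so depth could not be set beside these lengths.

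The 6 widest regions were single peaks with nearly the same edges in every library. The region 1244 bp from Josd2, which encodes a deubiquitinating enzyme, lay at chr7:44472902-44483719 and was the widest at 10818 bp. It had 10545 and 10304 bp under peaks in the KO libraries, against 10086 and 10766 bp in the flox libraries, so the groups overlapped. The second, at chr15:19708185-19718829, was 10645 bp wide, lay 691979 bp from the cell adhesion gene Cdh10 and had 10306 and 10276 bp in the KO libraries, against 10616 and 10198 bp in the flox libraries. The third, 9347 bp wide at chr3:43936874-43946220, lay 1432178 bp from the protocadherin gene Pcdh10 and had 8689 and 9210 bp in the KO libraries, against 8825 and 9174 bp in the flox libraries. In both of these regions too the groups overlapped, and the library with the most called bases was not the same from region to region. The region on chromosome 3 had a score of 3100 in every library, the highest score in the lists of both KO libraries and of flox replicate 1.

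Among the 6 widest regions, edges differed between libraries by at most 482 bp, and 1 of the 6, over Ldc1, overlapped a protein-coding gene. The Ldc1 region, at chr4:130201480-130209454, had 7835 and 7509 of its 7975 bp called in the KO libraries, against 7913 and 7944 bp in the flox libraries. Of the 15 widest, 7 were 1 peak in every library and 9 overlapped a protein-coding gene. Those over genes included the potassium channel gene Kcnk9, the dynein heavy chain gene Dnah12, the synaptic scaffold gene Shank1 and the crystallin genes Cryba4 and Crybb1. Kcnk9, at chr15:72534819-72542016, had 6731 and 6559 bp called in the KO libraries, against 6163 and 6156 bp in the flox libraries, with both KO libraries higher. Ahdc1, at chr4:133014719-133021819, had 6451 and 4721 bp in the KO libraries, against 6394 and 5677 bp in the flox libraries, and its lowest library was KO replicate 2. The same library was lowest over Cryba4 and Crybb1, at chr5:112256862-112262846, with 5151 and 3966 bp in the KO libraries, against 5277 and 5190 bp in the flox libraries.

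**Figure D1:**
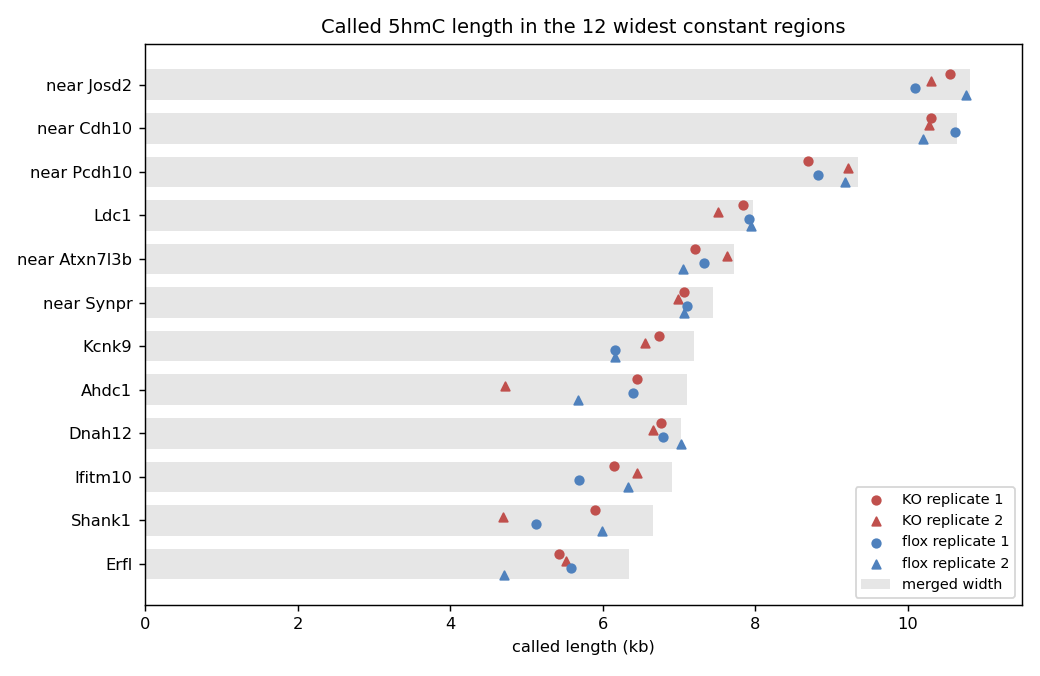
Called length (kb, x axis) of the 12 widest broad constant regions (y axis, named by the gene they overlap or lie nearest to), with 1 point per library and the merged width beside them. The KO and flox points lie close together below the merged width in the 6 widest regions, and KO replicate 2 lies apart at Ahdc1 (4721 bp).

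Broad regions lay in more gene-rich DNA than narrower constant regions. The midpoint was inside a protein-coding gene for 849 broad regions (45.5%, Wilson 95% interval 43.3 to 47.8%), against 40.5% (40.1 to 40.9%) of narrower ones. These intervals cover counting error over regions only, and neighbouring regions are not independent. The share was 36.0% at 500 to 1000 bp, 40.5% at 1000 to 1500 bp, 43.5% at 1500 to 2500 bp, 44.7% at 2500 to 3000 bp, 45.9% at 3000 to 4000 bp and 53.3% (43.8 to 62.6%, 105 regions) at 4000 bp or more. The share thus stood higher in each wider class, with wide intervals in the widest.

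The number of genes around the regions showed a similar order. The median number of protein-coding genes beginning, by the first coordinate of their span, within 500 kb was 12 for broad regions and 7 for narrower ones, and it reached 18 for regions of at least 4000 bp. A position over 100 kb from any protein-coding gene was found for 230 broad regions (12.3%), against 21.3% of narrower ones. Transcription starts came from a promoter table that lists a start for 16457 of 20154 protein-coding genes (81.7%) on the autosomes it holds, with the lowest share on chromosome 15 (54.4%), and starts on chromosome 18 were not used here. A listed start lay inside 117 of 1827 broad regions (6.40%), against 1.69% of narrower regions. Since a wider region has more room for a start, the listed starts were also counted per Mb of region, giving 25.5 per Mb in broad and 15.2 per Mb in narrower regions.

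**Figure D2:**
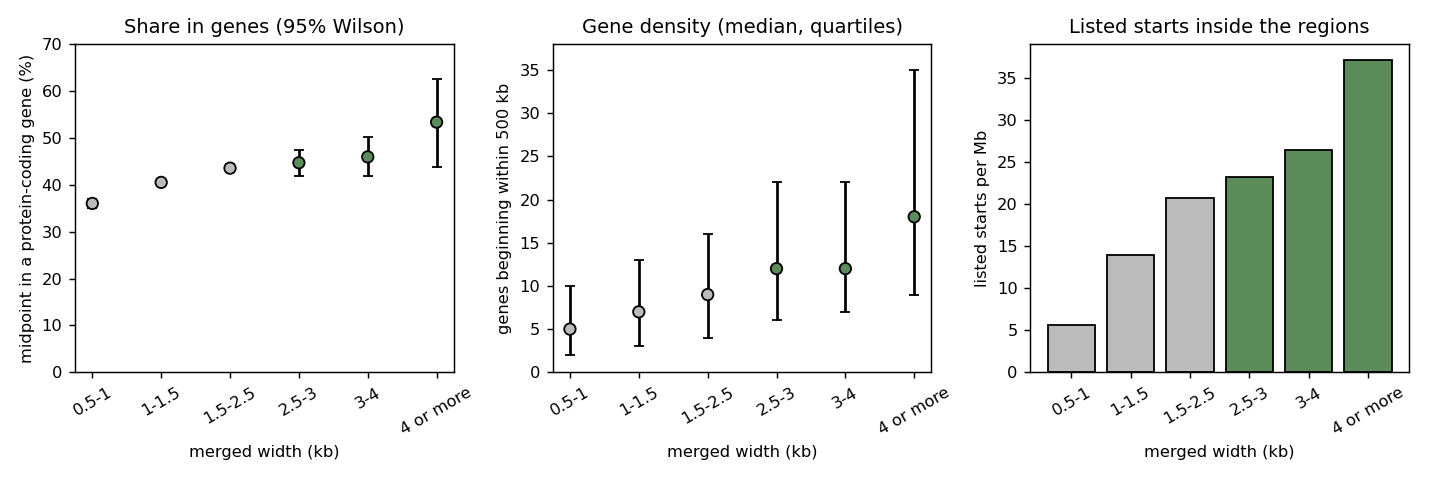
Share of constant regions inside a protein-coding gene (percent, with Wilson 95% intervals) and genes and starts around and inside them, by merged width class (kb, x axis). The middle panel gives the median and quartiles of genes beginning within 500 kb, and the right panel the listed starts per Mb inside the regions. The share and the listed starts per Mb stand higher in each wider class, and the interval is widest at 4000 bp or more, where 105 regions gave 43.8 to 62.6%.

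Broad regions were unevenly spread over the chromosomes and often had another one close by. Per 1000 constant regions, chromosome 7 held 47.1 broad ones (202 regions), chromosome 17 held 39.5 and chromosome 5 held 37.8, whereas chromosome 18 held 15.9, chromosome 3 held 16.4 and chromosome 1 held 18.3. Of the 1865 regions, 779 (41.8%) had another broad region within 100 kb and 195 (10.5%) within 10 kb. The 1-Mb windows with the most were 44 to 45 Mb of chromosome 7, where 16 of 88 constant regions were broad, and 167 to 168 Mb of chromosome 2, with 15 of 65 (23.1%). The limits of the runs described in these windows were set after the positions were seen.

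Of the 16 broad regions in the chromosome 7 window, 12 lay between 44304516 and 44522090, a stretch of 218 kb with 4 of the 20 widest regions. It began at Clec11a, a growth factor gene of blood and bone progenitors, and ran over Shank1, the synaptotagmin gene Syt3, the adhesion gene Lrrc4b, Josd2 and the muscle gene Mybpc2. The share of the summed width called was 85.6 and 80.4% in the KO libraries, against 83.9 and 90.1% in the flox libraries, so the groups overlapped. Shank1 had 4 regions in its body, and the widest, 6652 bp, had 5896 and 4696 bp called in the KO libraries, against 5122 and 5995 bp in the flox libraries, again with overlap. In the Mybpc2 region, 5559 bp wide, 5056 and 5079 bp were called in the KO libraries, against 4147 and 4676 bp in the flox libraries. At Syt3 a region of 3934 bp had 2549 and 2640 bp in the KO libraries, against 3605 and 3276 bp in the flox libraries. KO libraries were thus higher at the one gene and lower at the other inside a single run. At Clec11a, 3559 and 890 bp of 4067 bp were called in the KO libraries, against 2988 and 3349 bp in the flox libraries, and only KO replicate 2 was low.

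**Figure D3:**
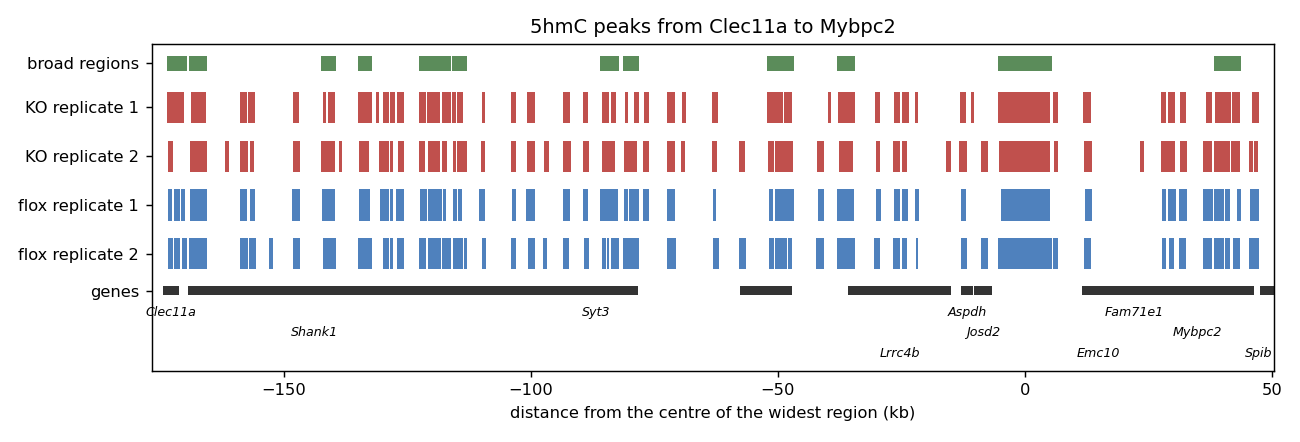
Peaks of each library (1 row per library, KO above flox) over the chromosome 7 run of broad regions from Clec11a to Mybpc2, with distance from the centre of the widest region in kb on the x axis and genes and merged regions marked. The 12 broad regions carry peaks in all 4 libraries, and the Josd2 region is the widest block in each.

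The chromosome 2 window held 10 broad regions between 167685992 and 167866199, a stretch of 180.2 kb, and 8 of the 10 were nearest to Cebpb, which encodes a transcription factor of myeloid differentiation. The region closest to Cebpb ended 211 bp before the gene and had 1115 and 1080 bp called in the KO libraries, against 1008 and 2587 bp in the flox libraries. Flox replicate 2 alone was high there. At chr2:167701122-167703834, 1155 and 824 bp were called in the KO libraries, against 1852 and 2614 bp in the flox libraries. At chr2:167754407-167758150, 63975 bp from Cebpb, 1068 and 1123 bp were called in the KO libraries, against 2958 and 3708 bp in the flox libraries. Both regions were lower in both KO libraries, whereas of the 3 broad regions between them the one at chr2:167738204-167742023 was nearly filled in every library, with 3572 and 3561 of 3820 bp in the KO libraries and 3725 and 3508 bp in the flox libraries. The one beside it, at chr2:167742922-167745439, had 2241 and 2377 bp in the KO libraries, against 2093 and 1755 bp in the flox libraries, with both KO libraries higher. Over the 10 regions, the KO libraries were both lower than the flox libraries in 2 and both higher in 1, once each library was scaled to the same total called length. Over all tested regions of the genome, 16.8% were lower and 17.3% higher in both KO libraries, so nothing is read from 2 and 1 of 10.

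**Figure D4:**
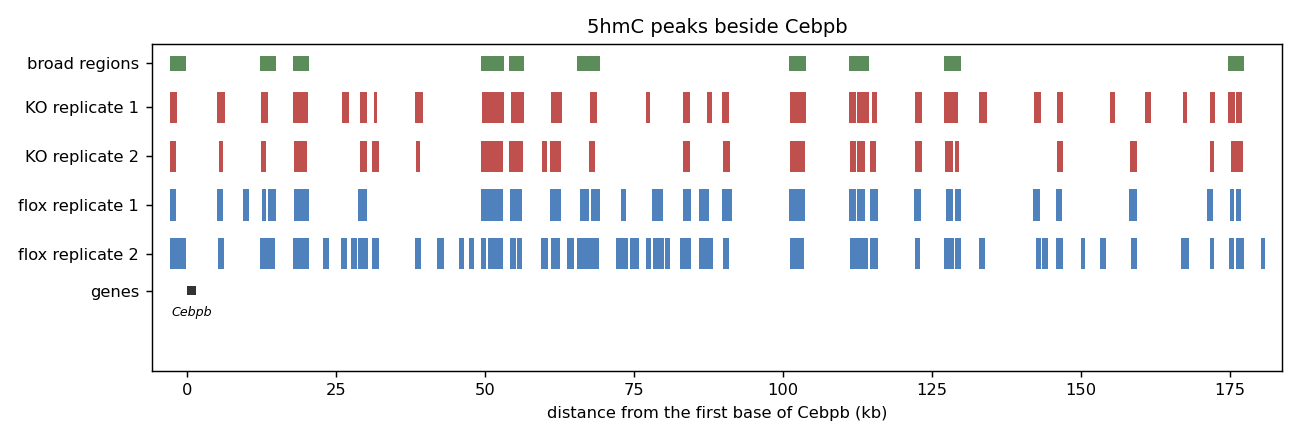
Peaks of each library (1 row per library, KO above flox) over the chromosome 2 run of broad regions around Cebpb, with distance from the first base of Cebpb in kb on the x axis. The region 63975 bp from Cebpb, 3744 bp wide, is nearly filled in flox replicate 2 (3708 bp). It is filled in part in flox replicate 1 (2958 bp) and less in the KO libraries (1068 and 1123 bp).

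Broad regions had their midpoint in the body of 732 of 20665 autosomal protein-coding genes (3.54%). Of these, 68 genes held 2, 18 held 3, 7 held 4 and Nrxn2 held 5. Nrxn2 encodes a neurexin, a presynaptic adhesion protein, and its 5 regions had 10327 and 11948 bp called in the KO libraries, against 12407 and 13427 bp in the flox libraries. Its KO libraries were both lower, and its largest single difference was at chr19:6443633-6446697, with 1415 and 2247 bp in the KO libraries, against 2523 and 2816 bp in the flox libraries. Genes with 4 included Shank1, the calcium release channel gene Ryr1, the calcium channel gene Cacna1a, the phosphodiesterase gene Pde2a, the membrane repair gene Dysf and the splicing factor gene Rbfox1. Cacna1a had 9853 and 10447 bp in its 4 regions in the KO libraries, against 9311 and 9008 bp in the flox libraries, both KO libraries being higher. The log2 differences of its regions ran from 0.03 to 0.57, with a median of 0.10. Ryr1 had 10665 and 10621 bp in the KO libraries, against 10409 and 10274 bp in the flox libraries, groups that did not overlap but lay close together. Pde2a had 8390 and 8788 bp in the KO libraries, against 10534 and 8889 bp in the flox libraries, both KO libraries being lower. The Pde2a regions went both ways, with log2 differences from -0.63 to 0.22 and a median of -0.004. For Shank1, Dysf and Rbfox1 the groups overlapped, and Dysf had its lowest value, 6416 bp, in KO replicate 2.

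Gene lists of blood and other cell types were read for genes with a broad region in the body or within 5 kb of it, against 977 of 20665 (4.73%) among all autosomal protein-coding genes. Of 33 haematopoietic transcription factor genes found in the annotation, 7 (21.2%) had at least 1, namely Spi1, Runx1, Cebpa, Cebpb, Zfpm1, Lyl1 and Erg. None of 13 genes of DNA methylation and its oxidation had a broad region, Tet2 included. The list of myeloid granule and receptor genes had 1 of 20 (Il3ra), blood cell signalling 2 of 20 (Vav1 and Syk), and other blood lineages 2 of 19 (Cd4 and Itga2b, whose regions lay over Gpr162 as well and nearer to Fam171a2). Genes of neurons, which are long, had 6 of 15 (40%), namely Rbfox1, Rbfox3, Grin2b, Nrxn3, Csmd1 and Gria1. The median gene length was 47.3 kb for the transcription factors, 1060 kb for the neuronal genes and 17.5 kb for all genes, and the part of gene length in these counts was not tested.

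Spi1, which encodes PU.1, a master regulator of myeloid and B cells, had 3 broad regions in its body on chromosome 2. The region at chr2:91093815-91097376 had 2494 and 2851 bp in the KO libraries, against 2838 and 3510 bp in the flox libraries, with overlap. The next, at chr2:91097790-91100967, had 2997 and 2644 bp in the KO libraries, against 2882 and 2953 bp in the flox libraries. The last, at chr2:91112820-91115464 near the far end of the gene, had 816 and 1216 bp in the KO libraries, against 2330 and 2433 bp in the flox libraries. Only the last separated the groups, with a log2 difference of -0.93 (SE 0.16) and 1 base that all 4 libraries called.

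The other transcription factor genes had smaller differences than the last Spi1 region. Inside Runx1, whose product supplies the DNA-binding part of AML1-ETO, the region at chr16:92805942-92809195 had 2651 and 2757 bp in the KO libraries, against 2494 and 2941 bp in the flox libraries. Beside Cebpa, a driver of granulocyte fate, the region at chr7:35123465-35126300 had 2673 and 2380 bp in the KO libraries, against 2437 and 2613 bp in the flox libraries. The groups overlapped at both, as they did at Erg. Zfpm1, which encodes a GATA cofactor, had 2503 and 2610 bp in the KO libraries, against 2261 and 2113 bp in the flox libraries, both KO libraries being higher. The region at chr8:84704787-84707400 lay within 5 kb of Lyl1 but over the neighbouring gene Nfix, and 2313 and 935 bp were called there in the KO libraries, against 2441 and 2270 bp in the flox libraries, and KO replicate 2 was low by itself.

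Among the receptor and signalling genes, the region at chr14:14345128-14348979 held the start of Il3ra, which encodes the interleukin-3 receptor alpha chain. It had 2340 and 2446 bp in the KO libraries, against 3205 and 3528 bp in the flox libraries, a log2 difference of -0.41 (SE 0.10). Inside Syk, a tyrosine kinase gene of blood cell receptors, the region at chr13:52617730-52621633 had 1595 and 1416 bp in the KO libraries, against 2672 and 3652 bp in the flox libraries (-0.85, SE 0.17). Both regions were lower in both KO libraries. Inside Vav1, which encodes a blood cell guanine nucleotide exchange factor, the region at chr17:57309261-57312724 had 3171 and 3278 bp in the KO libraries, against 2729 and 2373 bp in the flox libraries (0.30, SE 0.10). The second Vav1 region, at chr17:57302725-57305717, had 2993 and 1181 bp in the KO libraries, against 1798 and 1812 bp in the flox libraries, and its KO libraries lay on both sides of the flox libraries. None of these regions passed the test described next.

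Whether loss of Tet2 changed the broad regions was read from their called length in KO against flox libraries. Summed over the broad regions, 4345 and 4258 kb were called in the KO libraries, against 4559 and 4385 kb in the flox libraries. As a share of all called autosomal bases this was 3.92 ± 0.074% in KO and 4.04 ± 0.034% in flox libraries (SD, n = 2 each), with an exact two-sided permutation p = 0.333, the smallest that 2 against 2 libraries allow. The share of broad regions with at least 2500 bp called, unscaled, was 34.3 ± 1.97% in KO and 39.4 ± 4.06% in flox libraries (SD, n = 2 each). That limit also chose the regions by merged width, so this share is given without a test. Flox replicate 1, with 42.3%, also had the most called bases of any library, 113 Mb against 110 to 111 Mb.

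Region by region, none of the 1865 broad regions passed an adjusted p of 0.05 in limma's moderated test on log2(scaled called bp + 500), adjusted by Benjamini-Hochberg over 95457 regions. Of all 95457 regions, 0% were called, and the smallest adjusted p among broad regions was 0.865. An unadjusted p under 0.05 was reached by 188 broad regions, of which 124 were lower in KO, and by 3547 of all tested regions, of which 1869 were lower in KO. The median log2 difference, KO minus flox, was -0.02 over broad regions with quartiles of -0.18 and 0.11, and 0.00 over all tested regions. Adding 500 bp understates the change of regions with short called lengths.

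In 362 broad regions (19.4%) both KO libraries had a shorter scaled called length than both flox libraries, against a background of 16.8% of all tested regions. In 275 (14.7%) both were longer, against a background of 17.3%. The width rule admits a region through whichever libraries are long there, and it was not applied to the background, so nothing is read from the gap between these shares and the background. KO replicate 2 had the shortest scaled called length of the 4 libraries in 577 broad regions (30.9%). In narrower constant regions the median of this library was also the lowest, at 10.502 on the log2 scale of the test. KO replicate 1 stood at 10.5407 there, and the flox libraries at 10.5225 and 10.5161. Without KO replicate 2 the counts in broad regions were 633 lower and 615 higher in KO. Leaving out any other single library gave 677 to 740 lower and 517 to 584 higher. Without KO replicate 2 the median log2 difference over all tested regions also rose, from 0.0043 to 0.041. The part of this library in the imbalance between the counts was not tested.

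**Figure D5:**
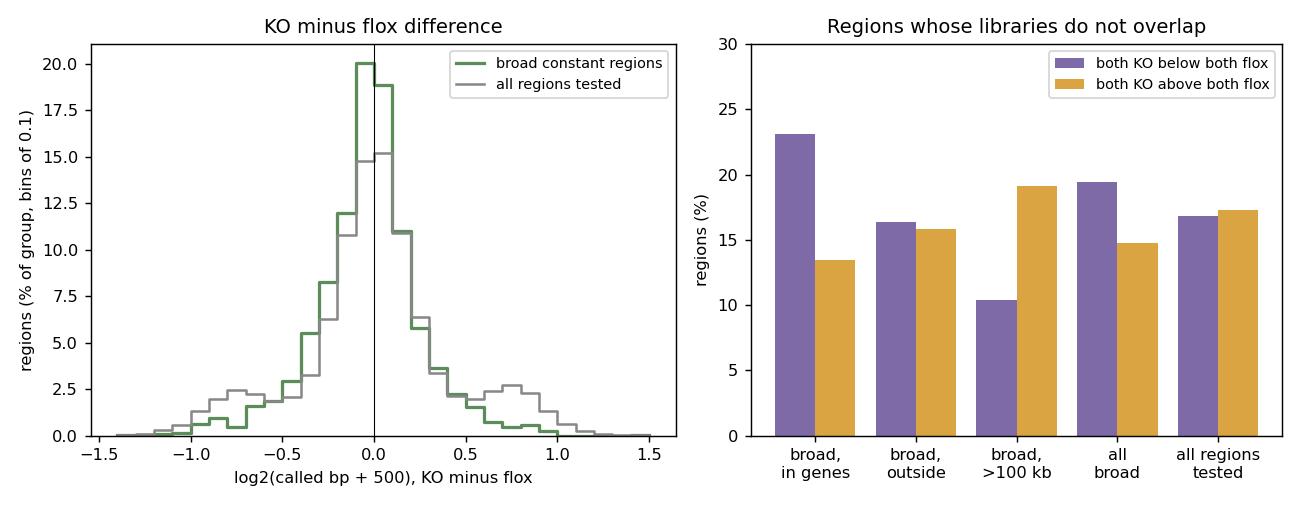
Left, distribution of the log2 difference in called length, KO minus flox (x axis, log2 of scaled bp plus 500), over the 1865 broad constant regions and over all tested regions (y axis, percent). Both are centred close to 0, with medians of -0.02 and 0.00. Right, percent of regions whose 2 KO libraries lie below or above both flox libraries, by place. Broad regions in genes have 23.1% below and 13.4% above, against 16.8% below and 17.3% above over all tested regions. The width rule was not applied to all tested regions, so nothing is read from these gaps.

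The counts in each direction were also taken by place. Of the 849 broad regions in genes, 196 (23.1%) were lower and 114 (13.4%) higher in both KO libraries, with a median log2 difference of -0.04, against 17.2% lower and 16.4% higher of the narrower constant regions in genes. Of the 230 that lay over 100 kb from a gene, 24 (10.4%) were lower and 44 (19.1%) higher, with a median of 0.00, against 15.2% and 18.3% of the narrower ones so placed. Of the 117 that held a listed gene start, 25 (21.4%) were lower and 11 (9.40%) higher, with a median of -0.05, against 17.5% and 16.5% of the narrower ones. Without KO replicate 2, the regions in genes had 320 lower and 262 higher and a median of -0.01, so the order stayed. The gap in counts was smaller, but the median over all tested regions also rose, from 0.0043 to 0.041. Over 100 kb from a gene, the counts were 72 lower and 73 higher without KO replicate 1, and 60 and 82 when the second KO library was left out instead. Leaving out a flox library gave 64 and 83 (replicate 1) or 79 and 83 (replicate 2). The excess of higher regions there was thus nearly gone without KO replicate 1 or flox replicate 2. The difference between these places was not tested. The 272 regions with at least 2500 bp called in every library had 16.9% lower and 14.3% higher and a median of 0.00.

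The largest differences lay in regions that some libraries called only in part, and none passed the test (adjusted p = 0.865, limma, for each). The region with the largest lower value in KO, at chr15:25493748-25497591, lay 79984 bp from Basp1, a gene of a growth-cone membrane protein that also acts as a transcriptional corepressor. It had 966 and 594 bp in the KO libraries, against 3303 and 2654 bp in the flox libraries, a log2 difference of -1.44 (SE 0.19). Inside Iars, which encodes an isoleucyl-tRNA synthetase, the region at chr13:49711542-49714134 had 420 and 786 bp in the KO libraries, against 2518 and 2172 bp in the flox libraries (-1.38, SE 0.20). The region 63975 bp from Cebpb came next, at -1.25 (SE 0.14). In all 3 regions each flox library had more than 2 times the called length of each KO library.

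Inside Man1c1, a mannosidase gene, the region at chr4:134586622-134590181 had 807 and 1671 bp in the KO libraries, against 3530 and 2997 bp in the flox libraries. Inside Aars2, the mitochondrial alanyl-tRNA synthetase gene, the region at chr17:45516998-45519708 had 1074 and 723 bp in the KO libraries, against 2671 and 2442 bp in the flox libraries. The region 90247 bp from Sulf2, a sulfatase gene, had 835 and 526 bp in the KO libraries, against 1867 and 2193 bp in the flox libraries. No base of that region was called in all 4 libraries, and a listed gene start lay nearer, 35297 bp from its midpoint. None of these 3 regions had overlapping groups.

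In the other direction, Col6a4, a collagen gene, had at chr9:106073766-106076545 2780 and 2094 bp in the KO libraries, against 439 and 806 bp in the flox libraries, a log2 difference of 1.41 (SE 0.23). Kcnip1, a potassium channel partner gene, had at chr11:33913466-33916397 1826 and 2932 bp in the KO libraries, against 927 and 976 bp in the flox libraries (0.97, SE 0.21). The region 14360 bp from the SUMO protease gene Senp1 had 2609 and 2147 bp in the KO libraries, against 779 and 1213 bp in the flox libraries (0.96, SE 0.20). Both KO libraries exceeded both flox libraries in each. The region 24535 bp from the ubiquitin ligase gene Cop1 had 2151 and 2860 bp in the KO libraries, against 1469 and 725 bp in the flox libraries (0.95). Without flox replicate 2 its log2 difference was 0.63. The region 49301 bp from the histone deacetylase gene Hdac2 had 1942 and 2440 bp in the KO libraries, against 766 and 1099 bp in the flox libraries (0.92). The region 47418 bp from the adenylate kinase gene Ak4 had 1484 and 2914 bp in the KO libraries, against 1034 and 772 bp in the flox libraries (0.91). Without KO replicate 2 its log2 difference was 0.52. In these regions too both KO libraries were the longer ones.

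The width rule cut through a continuum. Just inside it, at 2500 bp, lay a region in the receptor kinase gene Alk, with 2340 and 1885 bp called in the KO libraries, against 2177 and 2196 bp in the flox libraries. Just outside it, at 2499 bp, lay a region in the glycosyltransferase gene Mgat5, with 2071 and 2283 bp in the KO libraries, against 2066 and 2426 bp in the flox libraries. The regions on either side of the limit thus had called lengths of the same size.

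Of 919 autosomal miRNA hairpins in the RefSeq table, 4 lay inside a broad region. Their mature sequences, from the same GRCm38.p6 release, are shown because they are the short RNAs encoded within broad regions, with the seed, bases 2 to 8, in capitals.
mmu-miR-1963, chr7:29083671-29083693, minus strand: uGGGACGAgaucaugaggccuuc
mmu-miR-3095-3p, chr4:58441023-58441045, minus strand: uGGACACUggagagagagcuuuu
mmu-miR-3100-5p, chr7:19086828-19086850, plus strand: uUGGGAACggggugucuuuggga
mmu-miR-3100-3p, chr7:19086872-19086892, plus strand: cUGUGACAcacccgcucccag
mmu-miR-6945-3p, chr13:55507627-55507647, minus strand: uCUGAGCUcugcccuucccau
mmu-miR-6945-5p, chr13:55507667-55507688, minus strand: uCCUGGGAggggcagccccugg

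No seed was shared among these mature sequences. The region around mmu-miR-6945, inside the adaptor gene Pdlim7 at chr13:55506429-55508970, had 2542 and 2320 bp called in the KO libraries, against 1717 and 1732 bp in the flox libraries, a log2 difference of 0.41. Both KO libraries were higher there. The region around mmu-miR-3100, inside the kinase gene Dmpk at chr7:19084676-19087335, had 1923 and 2194 bp in the KO libraries, against 2569 and 2283 bp in the flox libraries, a log2 difference of -0.18, with both KO libraries lower. The region around mmu-miR-3095, inside the lysophosphatidic acid receptor gene Lpar1 at chr4:58439874-58442583, had 2161 and 1520 bp in the KO libraries, against 2100 and 1439 bp in the flox libraries, and the groups overlapped. The region around mmu-miR-1963, inside Ryr1 at chr7:29082789-29086155, had 2785 and 3355 bp in the KO libraries, against 3000 and 3108 bp in the flox libraries, and the groups overlapped.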

How the data were processed

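5hmC immunoprecipitation of KO cells (2 libraries) and flox cells (2 libraries) was compared through their deposited peak lists. Per the submitters' processing notes, the tools included CASAVA 1.8, Bowtie and MACS 1.4 and the build was GRCm38/mm10, with no settings given in the sources used here. Each list holds, per the file headers and values, a start and end in bp, a score and a p-value, both from the authors' peak caller, with 1 list per library. The score equalled -10 log10 of the deposited p-value within 0.02 for all but 1 peak. That peak, in flox replicate 2, had a score of 3230.05, beyond the range of the check, which raised the smallest p-values to a floor. Libraries had 116539 and 122101 peaks (KO) and 118727 and 118522 peaks (flox). The number of reads behind them is not known.

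Starts were read as counted from 0 and are printed counted from 1. Peaks on the 19 autosomes sharing at least 1 bp were merged (bedtools 2.31.1 gave the same regions), and a region's called length per library was scaled to the mean total called length. Regions with a mean of at least 500 bp were fitted in R 4.3.3 by limma 3.58.1, with a mean trend and robust variance shrinkage, on log2(bp + 500), KO minus flox, all 4 libraries, with Benjamini-Hochberg adjustment over all of them. Printed lengths are unscaled. Genes, starts, promoters and miRNAs came from RefSeq GRCm38.p6; starts were those listed in its promoter table, for 81.7% of protein-coding genes on the autosomes other than 18. Shares carry Wilson 95% intervals. The regions named are the widest, the 6 with the largest difference each way, those at the width limit, those at listed genes and those of the densest windows, and some results that these rules name are not reported here. The members and lists were chosen with earlier results of these data known.

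The fit was tested on simulated data. Replicate numbers were not treated as pairs in the main fit. Alternatives were other peak, merging, width, pseudocount, scaling and filter settings, a replicate block and leaving out each library.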

Additional observations from a re-analysis of the deposited data

Results flagged for a closer look

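Chromosome X was outside the comparison, and peaks there gave 31 regions of at least 2500 bp called in all 4 libraries, of 383 constant ones (8.09%). The signal was picked out because these data enter no comparison above. The widest, at chrX:83583030-83603585, was 20556 bp wide and had 19717 and 20042 bp called in the KO libraries, against 19033 and 18742 bp in the flox libraries. Both KO libraries were higher, with no test made.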

How the results depend on the processing

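The number of broad constant regions depended on the width rule and on merging. It was 1189 when each library kept its 50000 peaks of highest score, 5465 when peaks within 500 bp were merged as well, 5462 at a width of at least 2000 bp, 645 at 3000 bp and 272 with at least 2500 bp called in every library. The share in genes was 42.7% when peaks within 500 bp were merged, 48.5% by any overlap with a gene and 54.3% with 5 kb added at both ends. The median log2 difference was -0.041 with peak scores of at least 100 and 0.0012 with at least 2500 bp called in every library. Leaving out each library in turn, it ran from -0.033 to 0.0022 in broad regions, and only without KO replicate 2 was it above 0. The median over all tested regions moved as well, from 0.0043 with all 4 libraries to 0.041 without KO replicate 2. With each of the other libraries left out, that median ran from -0.019 to 0.0072. Over these fits the counts of broad regions whose groups do not overlap ran from 633 to 740 lower and from 517 to 615 higher in KO. With 3 libraries, groups fail to overlap more often by construction, and the cause of the other shifts was not tested. No broad region passed the adjusted threshold in any limma alternative, where the smallest adjusted p ran from 0.610 to 0.906. With the replicate number as a block, 0 broad regions passed and 205 were at an unadjusted p under 0.05. Same-numbered libraries did not deviate together (correlation 0.0024 over all tested regions). When a library was left out, the lone library of its group was assumed to vary like the other group. Reads per library are unknown, and their part in the called lengths was not tested.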

Other observations

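A small group of broad regions was called almost end to end in all libraries. The region with the highest share of its width called in every library, 98.8%, lay 11127 bp from the olfactory receptor gene Olfr1234. This region, at chr2:89384773-89390193, had 5417 and 5387 of 5421 bp in the KO libraries, against 5383 and 5355 bp in the flox libraries. A region 56063 bp from Sipa1l3, a gene of a Rap GTPase-activating protein, had 5641 and 5522 of 5733 bp in the KO libraries, against 5615 and 5633 bp in the flox libraries. A region 3068 bp from Ltf, which encodes lactoferrin, a protein of neutrophil granules, had 2505 and 2497 of 2534 bp in the KO libraries, against 2450 and 2442 bp in the flox libraries.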
